A study of Mus musculus with 5 samples.

Results

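The proteasome genes of the newborn mouse lens were examined on Illumina MouseWG-6 v2.0 arrays. They were chosen by name alone, as genes whose symbol in the platform annotation starts with Psm, a letter from a to g and a digit, and each was read by its brightest probe, judged by the average of all 5 arrays. Of 19057 genes on the array, 49 matched. The match brought in 47 genes of the proteasome and 2 genes, *Psmc3ip* and *Psme3ip1*, that share only the start of the name and are given at the end. The 47 were divided into the 20S core (15 genes), the 19S cap (17 genes), the immunoproteasome and thymoproteasome subunits (4 genes), activators (4 genes) and assembly chaperones (7 genes). No probe carried the name of *Psmf1*, the proteasome inhibitor PI31.

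The study asked which transcripts change in the lens when the RNA-binding protein Celf1 is lost. There were 3 arrays of Celf1cKO/lacZKI mice carrying Pax6GFPCre (mutant arrays A, B and C) and 2 of control mice (control arrays A and B), with 2 lenses per biological replicate. In the mutant, one *Celf1* allele had a floxed exon removed by Cre under the *Pax6* lens driver and the other was a germline *lacZ* knock-in, so that every cell of these mice carried at least 1 disrupted allele. The labels describe the controls as wild-type animals of mixed C57BL/6J and FVB background. Elsewhere in the methods, control animals are mice with the floxed allele but no Cre, or with Cre and intact *Celf1*, so the exact genotype on the control arrays is uncertain.

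The authors subtracted background and normalized the arrays to each other, and the values are intensities on a linear scale with no detection call. *Celf1* read 167.4, 172.7 and 154.2 on the mutant arrays, against 515.7 and 460.7 on the control arrays, a log2 fold change of -1.38 (SE 0.09, adjusted p = 0.000796), and the groups did not overlap. The crystallin gene *Cryaa*, a defining lens marker, read between 21935.2 and 24620.4 on all arrays, while the probes of *Gja3* and *Pax6*, also lens genes, lay near background on all 5. *Xist*, transcribed from the inactive X, gave -0.3, -0.9 and 263.5 on the mutant arrays in order of letter, against 432.4 and 440.6 on the control arrays. *Eif2s3y*, a gene of the Y chromosome, gave 206.9, 177.3 and 4.4 in the same order, against 2.5 and 1.1 on the control arrays. Mutant arrays A and B thus differed from the controls in these sex-linked transcripts as well as in genotype, and each member that passed the test is also given for mutant array C alone, as a value from a single array.

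The proteasome degrades proteins that carry ubiquitin chains. Its barrel, the 20S core, is a stack of α rings, which form the gate, and β rings, which hold the catalytic sites. The 19S cap binds, deubiquitinates, unfolds and feeds the substrate into the barrel, through a base with ATPases and a lid. Interferon-inducible β subunits can replace the catalytic ones and give the immunoproteasome, other activators can dock in place of the cap, and dedicated chaperones assemble the rings. In the lens, where fiber cells remove their organelles and then keep their proteins for life, the ubiquitin-proteasome system is active during fiber differentiation.

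In Celf1cKO/lacZKI lenses, 7 of the 47 proteasome genes rose and 0 fell at an adjusted p under 0.05 (limma). Before adjustment, 14 were higher with p under 0.05 and 1 was lower. Those that rose were the α subunit genes *Psma2*, *Psma5* and *Psma7*, the β subunit genes *Psmb2* and *Psmb3*, the activator gene *Psme3* and the chaperone gene *Psmg2*, with fold changes between 1.34 and 1.75. The 20S core held 5 of the 7. No gene of the 19S cap (0 of 17) and no immunoproteasome or thymoproteasome gene (0 of 4) passed, with 3 of the cap genes and 0 of the other 4 at an unadjusted p under 0.05. Whether these classes differ from each other was not tested.

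Over all genes tested, 3.15% rose and 2.66% fell, 5.81% in all, and 9.05% were higher at an unadjusted p under 0.05. Of the 47 proteasome genes, 14.9% rose, and of the 15 core genes, 33.3%. Proteasome genes were brighter than most: 41 of 47 lay above the median probe, and among the 12138 genes of the array above it 4.93% rose. The log2 fold change was above 0 for 37 of the 47 and below 0 for 10, with a median of 0.13, against a median of 0 over all genes. Over all 19057 genes, it was above 0 for 9377 and below 0 for 9680. All 3 mutant arrays lay above both control arrays for 19 of the 47 (16.4% of all genes) and below both for 4 (17.3% of all genes). At the study's threshold of a 2-fold change with an unadjusted p under 0.05, 0 of the 47 passed, where 0.876% of all genes did. All 7 calls were lost without control array B, when 11 of the 47 had an unadjusted p under 0.05 in limma and 224 genes of the array passed. The log2 fold changes of the 7 genes then stayed above 0, at 0.73 for *Psmg2*, 0.56 for *Psma5*, 0.54 for *Psma7*, 0.48 for *Psma2*, 0.44 for *Psmb3*, 0.43 for *Psme3* and 0.40 for *Psmb2*. In bulk lens RNA, a change in the share of a cell type and a change in RNA per cell cannot be told apart.

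**Figure D1:**
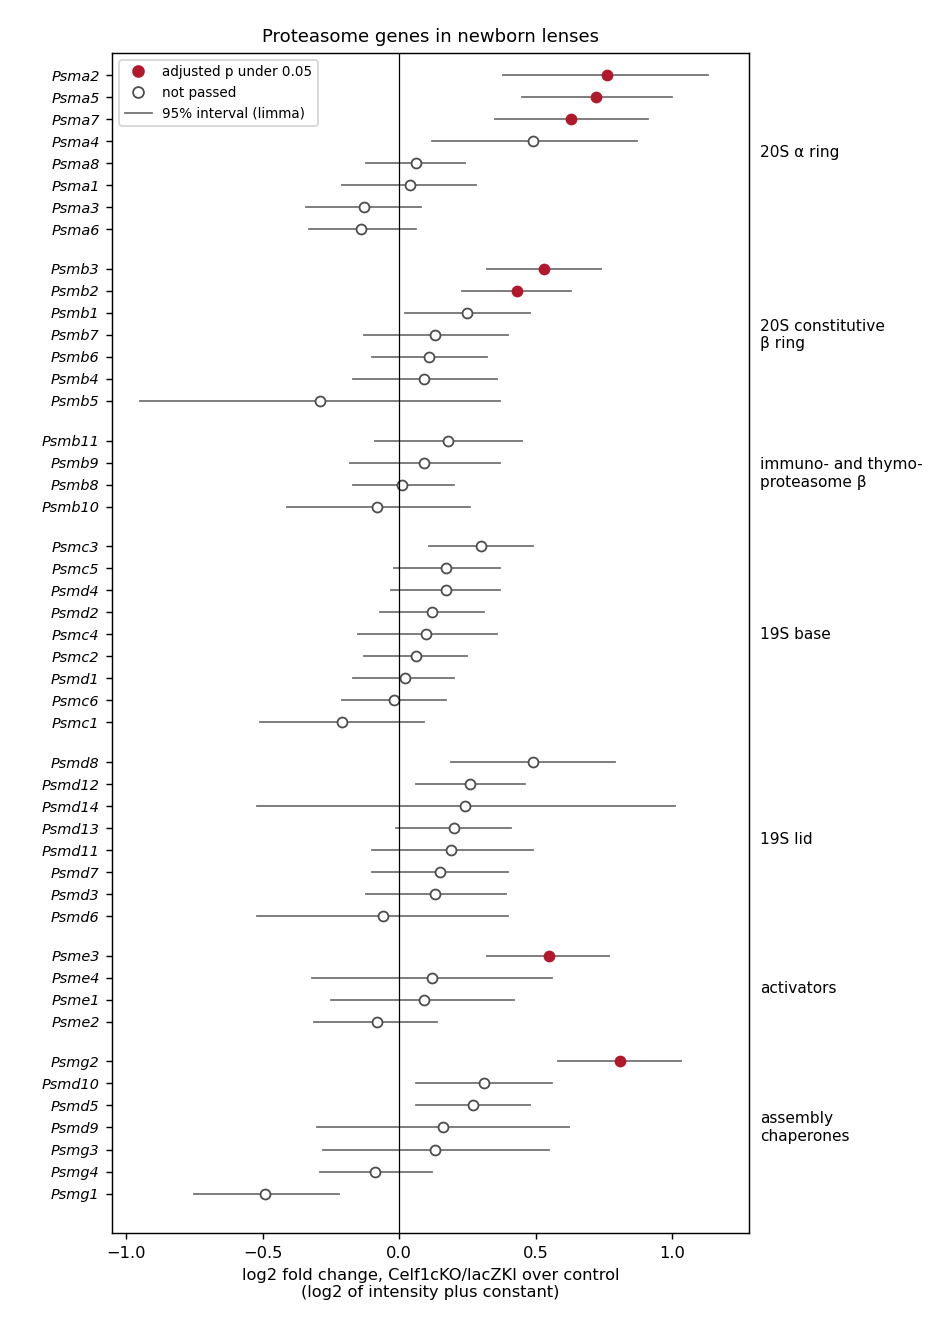
The log2 fold change of each of the 47 proteasome genes, Celf1cKO/lacZKI over control, with its 95% interval from limma, grouped by class. The 7 genes that rose (filled points) lie between 0.43 and 0.81, the others are open circles, and the widest intervals are those of *Psmd14* and *Psmb5*.

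The sequence before the transcription start is shown for some genes that rose and for *Psmb5*, because some members of 1 complex passed the test and others did not. The log2 fold change of *Psmb5* was -0.29 over all arrays and 0.02 without mutant array C, so that its direction is not settled. RefSeq (GRCm38.p6) gave a window of 250 bases before the start for 39 of the 47 genes, including 5 of the 7 that rose. Each window was searched on both strands for CCAAT, the CCAAT box, and for TGACNNNGC, the core of the antioxidant response element that Nrf1 and Nrf2 bind; the motifs share no match. The windows of *Psma5*, *Psmb3* and *Psme3*, which rose, and of *Psmb5*, which did not pass, follow 5′ to 3′ on the strand of the gene, with the motif matches in capitals (ATTGG is CCAAT on the other strand). They lie at chr3:108256676-108256925 on the plus strand, chr11:97703184-97703433 on the plus strand, chr11:101315963-101316212 on the plus strand and chr14:54617996-54618245 on the minus strand.
*Psma5*: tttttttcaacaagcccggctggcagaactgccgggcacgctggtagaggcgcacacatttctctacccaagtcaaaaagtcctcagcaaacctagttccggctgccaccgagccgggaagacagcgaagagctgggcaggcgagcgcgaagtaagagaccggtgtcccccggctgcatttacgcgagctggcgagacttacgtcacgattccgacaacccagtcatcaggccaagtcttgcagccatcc
*Psmb3*: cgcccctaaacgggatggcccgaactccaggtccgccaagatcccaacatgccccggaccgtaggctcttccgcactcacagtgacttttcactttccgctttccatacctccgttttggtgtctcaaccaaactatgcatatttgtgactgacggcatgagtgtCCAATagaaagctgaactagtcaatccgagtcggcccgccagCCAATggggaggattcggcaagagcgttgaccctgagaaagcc
*Psme3*: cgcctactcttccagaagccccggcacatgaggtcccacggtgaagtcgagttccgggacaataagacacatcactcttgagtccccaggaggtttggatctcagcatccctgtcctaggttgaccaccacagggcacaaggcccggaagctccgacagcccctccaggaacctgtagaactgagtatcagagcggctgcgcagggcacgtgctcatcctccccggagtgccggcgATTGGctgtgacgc
*Psmb5*: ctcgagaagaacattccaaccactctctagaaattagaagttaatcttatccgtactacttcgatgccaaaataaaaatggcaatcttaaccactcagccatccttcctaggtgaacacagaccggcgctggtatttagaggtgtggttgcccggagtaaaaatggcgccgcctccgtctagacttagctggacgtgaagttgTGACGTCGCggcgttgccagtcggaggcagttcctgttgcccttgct
The window of *Psma5* held neither motif. That of *Psmb3* held CCAAT at 85 and 43 bases before the start, that of *Psme3* held it at 14 bases, and that of *Psmb5* held TGACNNNGC at 47 bases. The windows of *Psma2* and *Psma7*, which overlap a neighbouring gene and are not printed, held CCAAT at 54 and 196 bases. CCAAT was thus present for 4 of the 5 genes that rose and had a window and for 10 of the 34 other members (29.4%). Of all genes with a window, 37.5% held it in any of their windows. TGACNNNGC was present for 0 of the 5 genes that rose and for 5 of the 39 members (12.8%), namely *Psmb5*, *Psmb6*, *Psmc6*, *Psmd9* and *Psmd12*. Of all genes with a window, 11.5% held it. A match to these letters describes the window and does not show a binding site.

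In the α ring, 3 of 8 genes rose. *Psma5* read 6050.1, 5839.4 and 5357.1 on the mutant arrays, against 3884 and 3083.3 on the control arrays. The groups did not overlap, and the log2 fold change was 0.72 (SE 0.12, 1.65-fold, adjusted p = 0.0135). Another *Psma5* probe lay near background, with 2.6 to 10.7 (log2 fold change 0.11, adjusted p = 0.691 over all probes). With the mean of its probes *Psma5* gave 0.42 (adjusted p = 0.0268). *Psma2* read 5856.7, 5916.6 and 5143.6 on the mutant arrays, against 4029.6 and 2728 on the control arrays. Control array B was well below control array A here, and the log2 fold change was 0.76 (SE 0.16, 1.69-fold, adjusted p = 0.0384). *Psma7* read 1285.3, 1513.3 and 1638.2 on the mutant arrays, against 1000.7 and 880.3 on the control arrays, with mutant array C the highest of all. Its log2 fold change was 0.63 (SE 0.12, 1.55-fold, adjusted p = 0.0255). A second *Psma7* probe read 1015.9, 1035.1 and 1332.8 on the mutant arrays, against 732.7 and 725.3 on the control arrays (log2 fold change 0.59, adjusted p = 0.0398 over all probes).

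*Psma4* did not pass. It read 2389.7, 2267 and 1891.8 on the mutant arrays, against 1823.7 and 1285.5 on the control arrays (log2 fold change 0.49, 95% interval 0.12 to 0.87, adjusted p = 0.149). The remaining α genes gave no usable reading. The probes of *Psma1*, *Psma3* and *Psma6*, each a subunit of every 20S particle, lay near 0 on all arrays and below the median probe, and that of *Psma8*, the testis form of *Psma7*, lay just above it with 5 to 9.1. *Psma6*, the lowest of the ring, read -0.2, -1.4 and -0.5 on the mutant arrays, against 0.9 and 5 on the control arrays. These values describe probes at background and bound no change of the transcript. The median log2 fold change of the ring was 0.28 over all 8 genes and 0.63 over the 5 above the median probe.

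**Figure D2:**
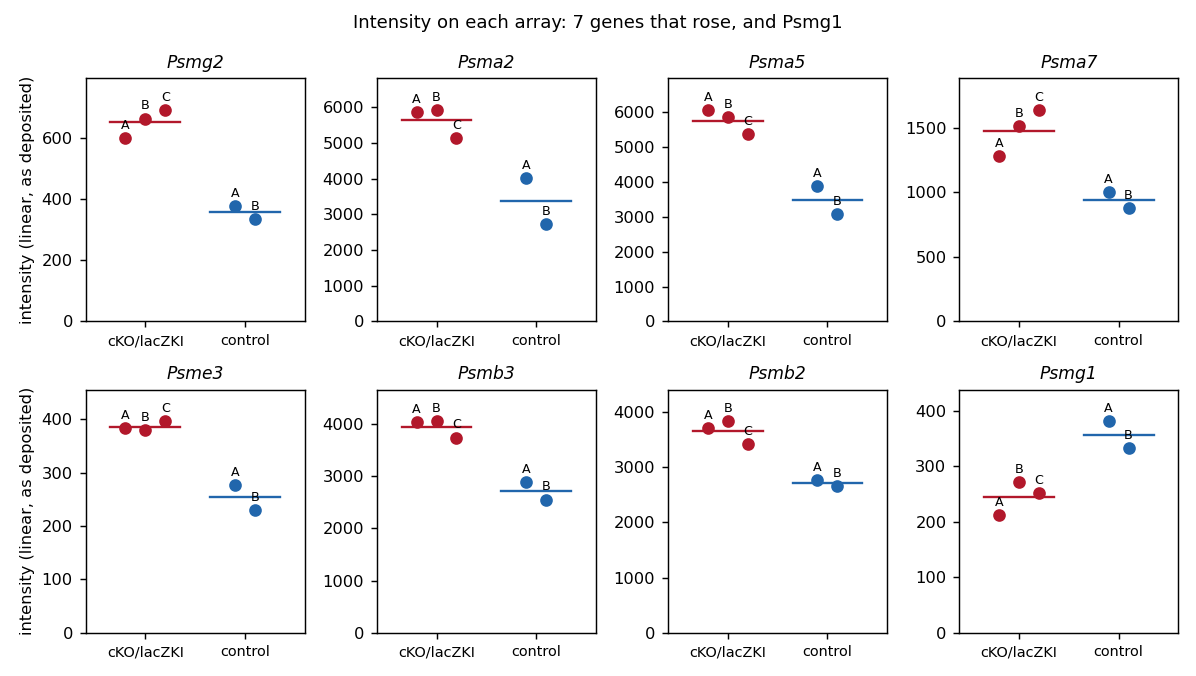
Intensity on each array (linear scale, axis from 0) of the 7 genes that rose and of *Psmg1*, with Celf1cKO/lacZKI arrays A to C on the left, control arrays A and B on the right and a bar at each group mean. In each of the 7 genes all mutant arrays lie above both controls and control B lies below control A, while for *Psmg1* all mutant arrays lie below both controls.

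In the constitutive β ring, 2 of 7 genes rose, and neither encodes a catalytic subunit. *Psmb3* read 4029.8, 4043.7 and 3737.1 on the mutant arrays, against 2890.9 and 2550.4 on the control arrays. The groups were clearly apart, with a log2 fold change of 0.53 (SE 0.09, 1.44-fold, adjusted p = 0.0178). *Psmb2* read 3707.3, 3823.7 and 3422.3 on the mutant arrays, against 2760.4 and 2651.5 on the control arrays. Its log2 fold change was 0.43 (SE 0.09, 1.34-fold, adjusted p = 0.0314), and a second probe gave 0.60 (adjusted p = 0.0991 over all probes). *Psmb1* (0.25, 95% interval 0.02 to 0.48, adjusted p = 0.244) and *Psmb4* (0.09, -0.17 to 0.36, adjusted p = 0.751), the other structural subunits, did not pass.

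None of the 3 catalytic subunit genes passed. *Psmb6*, for the caspase-like site, read 3282.3, 3435.7 and 3133.4 on the mutant arrays, against 3213.1 and 2863.7 on the control arrays. *Psmb7*, for the trypsin-like site, read 3508.4, 3561.5 and 3237.7 on the mutant arrays, against 3489.2 and 2795.4 on the control arrays. In both, the groups overlapped, and the 95% intervals of the log2 fold change ran from -0.10 to 0.32 for *Psmb6* and from -0.13 to 0.40 for *Psmb7*. The intervals of *Psmb2* (0.23 to 0.63) and *Psmb3* (0.32 to 0.74) overlapped that of *Psmb7*, and that of *Psmb2* also overlapped that of *Psmb6*. All are from the brightest probes, and the difference between the genes was not tested. Other probes gave 0.20 for *Psmb6*, and 0.12, 0.25 and 0.32 for *Psmb7*, none past the threshold. With the mean of all probes, *Psmb6* gave 0.16 and *Psmb7* 0.21, against 0.29 for *Psmb2* and 0.22 for *Psmb3*. The means of *Psmb2* and *Psmb3* each include a probe below the median probe. *Psmb5*, for the chymotrypsin-like site, read 447.8, 372.1 and 193.8 on the mutant arrays, against 438.9 and 366.5 on the control arrays. Mutant array C stood below the other 4, the interval ran from -0.95 to 0.37 (log2 fold change -0.29, adjusted p = 0.679), and the log2 fold change was -0.93 for mutant array C alone and 0.02 for mutant arrays A and B without it. The median log2 fold change of the β ring was 0.13.

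The inducible subunits did not pass in either direction. *Psmb8*, the counterpart of *Psmb5*, read 20.3, 20.5 and 17 on the mutant arrays, against 18.3 and 19.2 on the control arrays, close to the background of the array. *Psmb9*, the counterpart of *Psmb6*, read 6.8, 2.4 and 14 on the mutant arrays, against 5.5 and 4 on the control arrays. *Psmb10*, the counterpart of *Psmb7*, was the only one clearly above background, with 152.2, 188.8 and 224 on the mutant arrays, against 181.3 and 217.1 on the control arrays. In all of these the groups overlapped, and the 95% intervals of the log2 fold change were -0.17 to 0.20 for *Psmb8*, -0.18 to 0.37 for *Psmb9* and -0.41 to 0.26 for *Psmb10*. The intervals of *Psmb8* and *Psmb9* describe probes close to background and bound no change of the transcript. *Psmb11*, the subunit of the thymic cortex, read 6.2, 8.7 and 5.9 on the mutant arrays, against 6.8 and -2.6 on the control arrays, below the median probe. The median log2 fold change of these 4 genes was 0.05.

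In the 19S base, 0 of 9 genes passed, and 1 was higher at an unadjusted p under 0.05. *Psmc3*, an ATPase of the unfolding ring, was the highest, with 1706.6, 1840.8 and 1750.6 on the mutant arrays, against 1401.3 and 1452.6 on the control arrays. The groups did not overlap (log2 fold change 0.30, SE 0.08, adjusted p = 0.0826). *Psmc1*, another ATPase, was the lowest, with 1075.5, 1074.1 and 829.4 on the mutant arrays, against 1092.4 and 1202.4 on the control arrays (-0.21, 95% interval -0.51 to 0.09). The other ATPase genes gave 0.17 for *Psmc5*, 0.10 for *Psmc4*, 0.06 for *Psmc2* and -0.02 for *Psmc6*, whose probe lay below the median. The ubiquitin receptor gene *Psmd4* gave 0.17, and the scaffold genes *Psmd2* and *Psmd1* gave 0.12 and 0.02. The interval of *Psmd1* was narrow, from -0.17 to 0.20.

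In the 19S lid, 0 of 8 genes passed, and 2 were higher at an unadjusted p under 0.05. *Psmd8*, a structural subunit, read 699.1, 671.7 and 588 on the mutant arrays, against 517.3 and 396.1 on the control arrays. The groups did not overlap, with a log2 fold change of 0.49 (95% interval 0.19 to 0.79, adjusted p = 0.0753), a change as large as that of *Psma4*. *Psmd12* gave 0.26 (adjusted p = 0.148). *Psmd14*, the deubiquitinase of the cap, read 394.5, 332.2 and 150.8 on the mutant arrays, against 262.9 and 192 on the control arrays. Mutant array C lay below both controls and the other mutants above them, and the interval ran from -0.52 to 1.01 (0.24, adjusted p = 0.777). *Psmd6* gave the lowest value of the lid, with 50.6, 49.9 and 18.3 on the mutant arrays, against 40.5 and 41.7 on the control arrays (-0.06, 95% interval -0.52 to 0.40). The others gave 0.20 for *Psmd13*, 0.19 for *Psmd11*, 0.15 for *Psmd7*, the partner of *Psmd14*, and 0.13 for *Psmd3*. A dimmer *Psmd7* probe read 46.5, 51.1 and 49.9 on the mutant arrays, against 25.8 and 12.8 on the control arrays (adjusted p = 0.0208 over all probes), while its brighter probes did not pass. Over all probes, 2.40% rose, and 9 of the 82 proteasome probes did, in 8 genes.

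No gene of the 19S cap thus passed the threshold. With 3.15% of all genes rising, 0 of 17 tells little about the cap. Of its 17 log2 fold changes, 14 were above 0, against 9377 of 19057 over all genes. Its median was 0.15, against 0.13 for the 20S core. Over genes above the median probe, the median was 0.16 for 16 cap genes and 0.34 for 12 core genes. By array, the median shift of the cap against the mean of the controls was 0.14, 0.16 and 0.11 on the mutant arrays, against 0.02 and -0.02 on the control arrays. The median of the core was 0.17, 0.19 and 0.26 on the mutant arrays, against 0.09 and -0.09 on the control arrays, which mirror each other because they are set against their own mean. Mutant array C was below all other arrays for 6 of the 17 cap genes (35.3%), and this was so for 18.2% of all genes. Control array B was below control array A for 12 of the 15 core genes and for all 7 genes that rose (51.5% of all genes). None of the 7 calls held without that array, as given above.

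**Figure D3:**
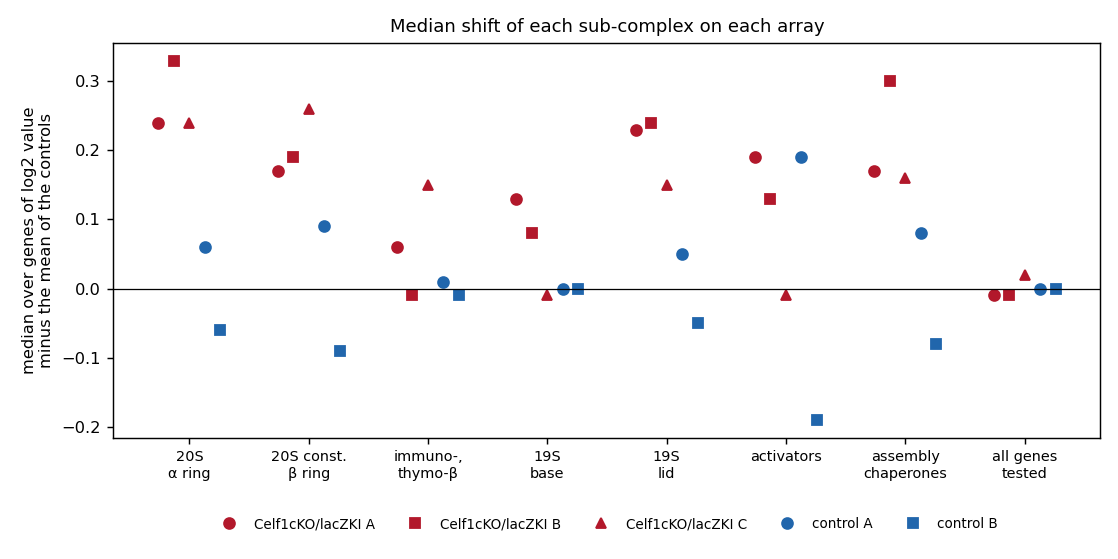
Median over the genes of each class of the log2 value minus the mean of the 2 controls, for Celf1cKO/lacZKI arrays (red) and control arrays (blue), beside the same over all genes tested. In both rings of the 20S core, the 19S lid and the assembly chaperones all 3 mutant arrays lie above both controls, in the other classes they do not, and over all genes the values lie between -0.01 and 0.02.

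Of the 4 activator genes, only *Psme3* rose. It encodes PA28γ, the nuclear activator that opens the 20S gate without ubiquitin, and it read 383.1, 379.6 and 396.1 on the mutant arrays, against 277.9 and 230 on the control arrays. The mutant arrays lay close together and apart from the controls, with a log2 fold change of 0.55 (SE 0.09, 1.46-fold, adjusted p = 0.0183). *Psme1* and *Psme2* together form the interferon-inducible PA28αβ. *Psme1* read 732.4, 712.3 and 687.2 on the mutant arrays, against 801.3 and 554.7 on the control arrays. *Psme2* read 171, 201.2 and 172.9 on the mutant arrays, against 206.4 and 183.1 on the control arrays. *Psme4*, which encodes PA200, read 2512.1, 2362.8 and 2020.2 on the mutant arrays, against 2647.3 and 1672.4 on the control arrays. In these 3 genes the groups overlapped, and the 95% intervals were -0.25 to 0.42 for *Psme1*, -0.31 to 0.14 for *Psme2* and -0.32 to 0.56 for *Psme4*.

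Among the assembly chaperones, *Psmg2* rose and its partner *Psmg1* lay on the other side of the controls. The 2 proteins bind each other and scaffold the α ring of the 20S core. *Psmg2* read 602.7, 665 and 692.5 on the mutant arrays, against 379.7 and 336.1 on the control arrays, and gave the highest fold change of the 47 genes (log2 0.81, SE 0.10, 1.75-fold, adjusted p = 0.00508). *Psmg1* read 211.2, 271.1 and 251.9 on the mutant arrays, against 380.4 and 332.7 on the control arrays, and gave the lowest (log2 -0.49, SE 0.11, 95% interval -0.75 to -0.22). The groups did not overlap in either gene, but *Psmg1* missed the threshold with an adjusted p of 0.0544, and passed it with 0.0483 after quantile normalization. The ratio of the *Psmg2* to the *Psmg1* probe was 2.85, 2.45 and 2.75 on the mutant arrays, against 0.998 and 1.01 on the control arrays. A ratio of 2 probes carries their own brightness, and only its change between arrays is read here. The ratio rests on the brightest *Psmg2* probe, and sets the highest fold change of the 47 genes over the lowest. Other *Psmg2* probes gave log2 fold changes of 0.44 (adjusted p = 0.118) and 0.21 (adjusted p = 0.745) in limma over all probes, so that the mean of its probes did not pass. The probe with 0.21 read 290.6, 321.7 and 159.8 on the mutant arrays, against 202.2 and 215.4 on the control arrays. Its groups overlapped, with mutant array C below both controls.

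The remaining chaperones did not pass. *Psmd10* (gankyrin) and *Psmd5*, which hold base ATPases during assembly, gave 0.31 (95% interval 0.06 to 0.56, adjusted p = 0.17) and 0.27 (0.06 to 0.48, adjusted p = 0.152), with all mutant arrays above both controls. *Psmd9*, the third base chaperone, gave 0.16, and the 20S chaperone genes *Psmg3* and *Psmg4* gave 0.13 and -0.09, the *Psmg4* probe lying below the median. With mutant array C alone against both controls, the log2 fold change was 0.89 for *Psmg2* and 0.78 for *Psma7*, both under an adjusted p of 0.05. In that comparison the spread between arrays comes from the 2 controls alone, and 1 array stands for the mutant, with no spread of its own. The log2 fold change was 0.63 for *Psma2* and *Psma5*, 0.58 for *Psme3*, 0.46 for *Psmb3* and 0.34 for *Psmb2*, with adjusted p between 0.0871 and 0.316.

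Genes around the proteasome were read from lists drawn up by function. Of 10 measured proteasome-associated factors and regulators (17 listed), 1 rose and 0 fell (3.15% and 2.66% of all genes). This was *Nfe2l1*, which encodes Nrf1, the transcription factor of proteasome genes. It read 1242, 1315.6 and 1121.2 on the mutant arrays, against 804.1 and 845.4 on the control arrays, with a log2 fold change of 0.55 (SE 0.09, adjusted p = 0.0171), and the call was lost when mutant A, mutant B or either control was left out (log2 fold change 0.50 to 0.58, adjusted p between 0.0545 and 0.0919). It was also lost with a constant of 16 (0.56, adjusted p = 0.0677) and with mutant array C alone (0.43, adjusted p = 0.17). *Pomp*, the maturation factor of the 20S core, gave 0.03 (95% interval -0.20 to 0.26), and *Usp14*, the deubiquitinase that visits the cap, gave 0.14 (-0.19 to 0.47).

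Of 11 measured ubiquitin, shuttle and p97 genes (18 listed), 2 rose and 0 fell (3.15% and 2.66% of all genes). *Sqstm1*, the shuttle and autophagy receptor p62, read 2777.5, 2895.2 and 2146.5 on the mutant arrays, against 677.8 and 764.1 on the control arrays (log2 fold change 1.79, SE 0.14, adjusted p = 0.00155). *Nsfl1c*, the p97 cofactor p47, read 1328.7, 1250 and 963.6 on the mutant arrays, against 617.6 and 585.9 on the control arrays (0.92, SE 0.14, adjusted p = 0.0102), a call that was lost without control A (0.95, adjusted p = 0.0601) or without control B (0.88, adjusted p = 0.105). Both changes were above those of all 47 proteasome genes. Of 9 measured genes of Nrf2 and its targets, a list that does not hold *Sqstm1*, 0 passed in limma, with 1 higher at an unadjusted p under 0.05. Over all genes 5.81% passed, so that 0 of 9 tells little. The probes of *Nfe2l2*, *Nqo1*, *Gclc* and *Txnrd1* in this list read between 7.7 and 19.4, near background, and bound no change of those transcripts.

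Of 15 measured genes of antigen presentation and the interferon response, which rise with the immunoproteasome in inflamed tissue, 0 passed in limma, with 2 higher and 1 lower at an unadjusted p under 0.05. Over all genes 5.81% passed, so that 0 of 15 tells little. *B2m* read 663.4, 510.3 and 427.1 on the mutant arrays, against 370.7 and 356.8 on the control arrays (log2 fold change 0.49, 95% interval 0.11 to 0.87, adjusted p = 0.151), and passed without mutant array C (adjusted p = 0.0322). *H2-D1*, a class I heavy chain gene and the highest of the list, read 210.7, 104.7 and 180.6 on the mutant arrays, against 82.2 and 60.5 on the control arrays. The groups did not overlap, with a log2 fold change of 0.87 (95% interval 0.35 to 1.40, adjusted p = 0.0743), above that of each proteasome gene. *Nlrc5*, the class I transactivator, was the lowest, with -0.40 (-0.68 to -0.12, adjusted p = 0.118). *Irf1* gave 0.22 (-0.05 to 0.49), and *Tap1* lay near background. Of 10 leukocyte markers, 0 passed and 0 had an unadjusted p under 0.05, and their summed intensity was 266.9, 147.3 and 179.4 on the mutant arrays, against 158.9 and 178.3 on the control arrays. *Ptprc*, a dim probe, read 0.9, 4.7 and 2.8 on the mutant arrays, against 5.5 and 10.4 on the control arrays, while *Fcer1g* read 45.1, 13.3 and 23.7 on the mutant arrays, against 12.4 and 9.4 on the control arrays (0.40, adjusted p = 0.33). *Lyz2*, also a dim probe with 2.6 to 14.4, likewise lay above both controls on all mutant arrays (0.19, adjusted p = 0.427). *Csf1r*, like *Ptprc*, lay below both controls on all mutant arrays (-0.16, adjusted p = 0.427). Of the 10 leukocyte markers, 2 thus lay wholly above the controls and 2 wholly below, with a median log2 fold change of 0.04. Red blood cell markers summed to 8280.3, 2631.7 and 3927.9 on the mutant arrays, against 2534.9 and 3500.1 on the control arrays, with 0 of 3 past the threshold. Of 6 lens fiber markers, *Bfsp2* and *Lim2* fell (log2 fold changes -0.50 and -0.51), and the summed intensity was 84411.2, 88083.2 and 98712.3 on the mutant arrays, against 107903.7 and 99828 on the control arrays. Of 3 lens epithelium markers, 0 passed and 0 had an unadjusted p under 0.05. Their summed intensity, most of it from *Cdh1*, was 208.8, 204.1 and 137.7 on the mutant arrays, against 259.7 and 238.4 on the control arrays. All mutant arrays lay below both controls for *Cdh1* (-0.45, adjusted p = 0.295) and *Pax6* (-0.18, adjusted p = 0.297), whose probe was near background. *Foxe3* overlapped between the groups, with 27.8, 31.8 and 39.6 on the mutant arrays, against 41.3 and 22.3 on the control arrays (0.04). The part of these shifts in the proteasome values was not tested.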

How the data were processed

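Total RNA of newborn lenses was hybridised to Illumina MouseWG-6 v2.0 BeadChips, 3 Celf1cKO/lacZKI and 2 control arrays. The authors subtracted background in lumi, whose version is not given, and applied Rank Invariant normalization. The deposited table holds linear intensities without detection p. Among the 45281 probes, 34885 had 1 gene in the platform annotation, 18 had several and 10378 had none. A constant of 36.5 was added, so that the lowest value became 16, and log2 was taken, which understates fold changes of dim genes. Genes were called dim at or below the median probe mean of 6.02.

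Each of 19057 genes was tested by its brightest probe in a two-sided limma 3.58.1 model of all 5 arrays without a block (R 4.3.3, moderated by eBayes), with Benjamini-Hochberg adjustment over all genes and a threshold of 0.05. The probe-level fit covered all 34885 probes. An exact permutation test of 3 arrays against 2 cannot go below p = 0.1. The precision rests on the number of arrays, and the sources do not give the depth of a reading. The code was tested on simulated data. Alternatives were a constant of 16, quantile normalization, median centring, no dim genes, the mean of all probes, array weights, robust moderation with an intensity trend, a replicate block by letter, every probe tested, mutant array C alone, leaving out each array, and an unadjusted p under 0.05 with a 2-fold change. Full values are given for genes that passed, catalytic and inducible subunits, activators, and the highest and lowest gene of each class. Others, and second probes, are named as examples chosen after their values were seen. The members and lists were chosen with earlier results of these data known. Python 3.11.15 and matplotlib 3.10.9 were used for the figures.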

Additional observations from a re-analysis of the deposited data

How the results depend on the processing

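Under the alternatives run, no gene past the threshold changed sign. Genes that did not pass changed sign in some: *Psmd14* gave -0.48 with mutant array C alone, *Psme4* -0.21, *Psme1* -0.17, *Pomp* -0.08 and *Psmb7* -0.02 without control B, *Psmd6* 0.16 and *Psmb5* 0.02 without mutant C, *Psmb10* 0.15 and *Usp14* -0.10 with mutant array C alone. *Psmb9* ranged from -0.01 without mutant C to 0.29 with mutant array C alone, and *Psmb8* and *Tap1* moved between values near 0. The 7 proteasome genes called became 2 with a constant of 16 (*Psma5* and *Psmg2*), 3 with mutant array C alone (*Psma7* and *Psmg2* higher, *Psmb5* lower), 0 at the 2-fold rule, and 0 to 8 when 1 array was left out: 3 without mutant A, 1 without mutant B (*Psmg2*), 8 without mutant C, 5 without control A and 0 without control B. The 1107 calls over all genes became 167 at the 2-fold rule and 224 to 1171 without 1 array. The 5 core calls became 1 with a constant of 16, 3 with the mean of all probes, 1 with mutant array C alone and 0 to 5 without 1 array, the 0 standing for mutant B and for control B. The 0 cap calls became 1 with the mean of all probes and 1 with array weights (*Psmd8* in both), 2 with the replicate block, and 0 to 1 without 1 array (1 without mutant C). The core median of 0.13 became 0.34 without dim genes, 0.26 with mutant array C alone and 0.12 to 0.29 without 1 array. The cap median of 0.15 ranged over 0.08 to 0.21 without 1 array, the lowest without control B and the highest without control A. With the replicate block 10 proteasome genes passed, adding *Psma4*, *Psmd8* and *Psmd14*. Whether the letters mark a pairing is not known. The deviations of same-letter arrays from their group means correlated by 0 and 0.03 over 12138 genes. With 2 controls, whose deviations mirror each other, such values cannot exclude a pairing. The cause of these shifts was not tested. With 3 arrays against 2, the test rests on few degrees of freedom, and leaving out 1 control, or taking mutant array C alone, leaves a lone array that is assumed to vary like the other group. Probes at background, including *Psma1*, *Psma3*, *Psma6*, *Psmc6*, *Psmb11* and *Psmg4*, cannot show a change. Those close to it, including *Psma8*, *Psmb8*, *Psmb9* and *Psmd3*, bound no change of the transcript. Over these alternatives the adjusted p ranged over 0.00431 to 0.0675 for *Psmg2*, 0.0071 to 0.0883 for *Psma5*, 0.021 to 0.181 for *Psma7*, 0.0162 to 0.176 for *Psma2*, 0.0161 to 0.099 for *Psme3*, 0.013 to 0.165 for *Psmb3* and 0.0232 to 0.316 for *Psmb2*.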

Other observations

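The 2 genes that matched by name only are not part of the proteasome. *Psmc3ip*, a factor of meiotic recombination, read 69, 75.2 and 270.4 on the mutant arrays, against 267.6 and 70.6 on the control arrays, so that 1 array of each genotype stood apart from the other 3 (log2 fold change -0.23, 95% interval -1.52 to 1.05, adjusted p = 0.887 by limma). *Psme3ip1*, which encodes a partner of PA28γ, read 276.3, 246.7 and 248 on the mutant arrays, against 231.4 and 225.7 on the control arrays (0.15, 95% interval -0.05 to 0.34, adjusted p = 0.452 by limma). A second *Psmd14* probe read 260.8, 247.2 and 99.9 on the mutant arrays, against 197.1 and 127.9 on the control arrays, with mutant array C again the lowest.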
